A study of Mus musculus with 12 samples.

Results

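The 10 genes described here were fixed by name as genes of the adrenal medulla. These 10 genes comprise 6 precursors of neuropeptides (*Npy*, *Penk*, *Gal*, *Vip*, *Adcyap1* and *Cartpt*), 2 granins (*Scg2* and *Scg3*) and 2 genes of the exocytosis machinery (*Snap25* and *Syt1*). They are 10 of the 39017 genes counted in whole adrenals of 12 female mice, 6 control (Ctrl) and 6 βCat-GOF, 10 to 11 weeks old, on a mixed sv129-C57Bl/6 background. The genotype labels give ASCre/+ for Ctrl mice and ASCre/+ ::Ctnnb1fl(ex3)/+ for βCat-GOF mice. The titles of the Ctrl samples read Wt_Ctr, and the paper writes both of wild type and of control adrenals. By the genotype labels, both groups carried Cre at the *Cyp11b2* (AS) locus, whose promoter drives expression in zona glomerulosa (zG) cells. In βCat-GOF mice it deletes a floxed exon of 1 *Ctnnb1* allele and stabilizes β-catenin in zG cells and their descendants. The allele is therefore not directed at medullary cells. The comparison asks whether these transcripts, listed as medullary, differed in the whole gland when β-catenin was stabilized in the cortex.

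Chromaffin cells of the medulla store catecholamines in large dense-core granules together with peptides cut from larger precursors. Granins such as secretogranin II and III are part of the granule matrix, and some are themselves cut into peptides. When acetylcholine from the splanchnic nerve depolarizes the cell, calcium binds synaptotagmins and the SNARE proteins, SNAP-25 among them, fuse the granule with the plasma membrane. VIP and PACAP, the products of *Vip* and *Adcyap1*, are best known in this gland as transmitters of nerve terminals.

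All 10 genes are protein coding, and none of the 9 other than *Penk* shares exon sequence with another annotated gene (GENCODE M21, GRCm38, the same assembly as mm10). The exons of *Penk* (chr4:4133531-4138819, minus strand) overlap by 14.3% those of A830012C17Rik on the other strand, and the sources used here do not say whether reads were counted by strand. *Npy* lies at chr6:49822710-49829507 (plus strand), *Gal* at chr19:3409915-3414544 (minus), *Vip* at chr10:5639218-5647617 (plus), *Adcyap1* at chr17:93199017-93206537 (plus) and *Cartpt* at chr13:99898489-99901091 (minus). The granin genes are *Scg2* at chr1:79434669-79440120 (minus) and *Scg3* at chr9:75643189-75684056 (minus). *Snap25* occupies chr2:136713453-136782428 (plus) and *Syt1* chr10:108497650-109010982 (minus).

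Several of these genes are textbook targets of cAMP signaling through the cAMP response element, TGACGTCA, so their promoters are shown first. RefSeq promoter windows (GRCm38.p6, 250 bases before to 50 after a transcript start) were given for 8 of the 10 genes, in 10 windows, and not for *Penk* and *Snap25*. The full element, on either strand, was found in the windows of 2 genes, *Scg2* and *Cartpt*, and in 1.79% of all 32851 windows. Its first 7 bases, TGACGTC, were found in 4 genes, which include those 2, and in 3.21% of all windows. The core TGACG, which both longer forms contain, was in 6 genes and 20.8% of windows, and TATAAA was in 2 genes and 13.6%. No TGACG lay in the windows of *Npy* and *Syt1*. The sites are printed below 5′ to 3′ on the strand of the gene with 11 bases on each side, and capitals mark the match. The site of *Gal*, a TGACG 19 bases downstream of the start, is not printed. Distances are counted from the RefSeq start of the window, not from the GENCODE spans given above. For *Scg2* and *Cartpt* the RefSeq start lies inside the GENCODE span, so their printed sites also fall within that span. The sites are given because they separate the full element from its partial forms. A match of letters shows no binding.

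Scg2, 68 bases upstream of the start, chr1:79440076-79440105, minus strand: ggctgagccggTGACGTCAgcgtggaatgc
Cartpt, 112 bases upstream, chr13:99900777-99900806, minus strand: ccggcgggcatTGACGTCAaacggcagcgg
Vip, 79 bases upstream, chr10:5639128-5639156, plus strand: gatcactactgTGACGTCtttcggggagc
Adcyap1, 91 bases upstream of 1 of its 2 starts, chr17:93198915-93198943, plus strand: gactaggatgcTGACGTCttttactgata
Scg3, 30 bases upstream, chr9:75684071-75684097, minus strand: cgctgggtcgcTGACGccatcctcacg

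*Scg2* and *Cartpt*, which share the full element, were far apart in level, as the values per length show.

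Between 13484675 and 25625494 reads were counted per mouse, and totals did not differ between the groups beyond their spread (exact permutation test, two-sided, p = 0.777, n = 6 mice each). At these depths 3 counts correspond to 0.117 to 0.222 CPM (counts scaled to a common library total). Markers fixed for the cortex were present as the tissue label says. Of the 8 zG markers, 4 passed the test as higher in βCat-GOF adrenals (*Agtr1a*, *Agtr1b*, *Vsnl1* and *Dab2*), as did 1.48% of all genes tested. By sign, 7 of the 8 were higher, *Kcnk3* by only 0.00703 in log2 fold change, and *Cyp11b2* was lower (−0.183, edgeR adjusted p = 0.82). Of the 6 zona fasciculata markers *Akr1b7* passed as higher. Of the 6 macrophage markers *Adgre1* passed as lower, as did 0.869% of all genes, and none of the 6 endothelial or 5 adipocyte markers passed. Markers of cholinergic neurons were close to 0, with a summed level of at most 3.16 normalized counts in any mouse and *Chat* itself at a mean of 0 in Ctrl and 0.264 in βCat-GOF. None of the 9 tested general neuron markers passed the test, nor any of the 7 tested Schwann and sustentacular markers. In 3 pairs of mice (Ctrl 1 and 2, Ctrl 3 and 4, βCat-GOF 1 and 2) the label of one is that of the other with a suffix. Their counts differed by far more than sampling noise, and all 12 were treated as separate mice. The first number in the label follows the genotype apart from βCat-GOF 5, so a family or batch that goes with it cannot be told apart from the genotype.

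On a scale of CPM per kilobase of exon, which allows levels of different genes to be set side by side, *Scg2* had the highest level of the 10 genes, at 897 ± 326 (SD, n = 6) in Ctrl adrenals and 587 ± 155 in βCat-GOF. *Npy* followed at 269 ± 86.9 and 275 ± 83.8, and *Gal* at 62.7 ± 23.6 and 55 ± 15.5. Below these came *Scg3* at 15.9 ± 6.1 and *Penk* at 12.3 ± 3.31 in Ctrl, then *Snap25* at 7.28 ± 2.5 and *Syt1* at 6.22 ± 2.47. These SDs are between mice. Genes measured in the same mice were not tested against each other. *Cartpt* was at 2.32 ± 1.35 in Ctrl, *Vip* at 0.162 ± 0.184 and *Adcyap1* at 0.054 ± 0.0531. For scale, *Chga* (chromogranin A) was at 1160 ± 420 and *Th* (tyrosine hydroxylase, the rate-limiting enzyme of catecholamine synthesis) at 250 ± 84.7. By RNA level, *Scg2* thus stood near *Chga* and *Npy* near *Th*.

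The 4 granin and exocytosis genes had lower means in βCat-GOF adrenals, with log2 fold changes of −0.765 to −0.545, while those of *Npy*, *Penk*, *Gal* and *Cartpt* lay between −0.152 and 0.0832. In no gene did the difference pass the test, and in every gene the groups overlapped (over all genes tested, the groups did not overlap in 1.61% as higher and 1.16% as lower). Of the 10 genes, 8 had enough counts to be tested, and 0 of these 8 passed the cut-offs of an adjusted p under 0.05, a fold above 1.4 and a base mean above 100 (edgeR's quasi-likelihood test with Benjamini-Hochberg adjustment), against 2.35% of the 14953 genes tested. By the adjusted p alone 0 of the 8 passed, against 3.68% of all genes, and DESeq2 also called 0. Of the 8, 4 had an unadjusted p under 0.05, as had 20.4% of all genes tested. By sign, 7 had a negative and 1 a positive log2 fold change, with a median of −0.349 where the median over all genes was 0.000105. In whole-gland RNA, fewer medullary cells and less RNA per cell cannot be told apart. The summed level of the 8 zG markers, none of them at 0, was 56100 to 71400 normalized counts in Ctrl and 72000 to 93200 in βCat-GOF mice, and the part of this shift in the medullary values was not tested.

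**Figure D1:**
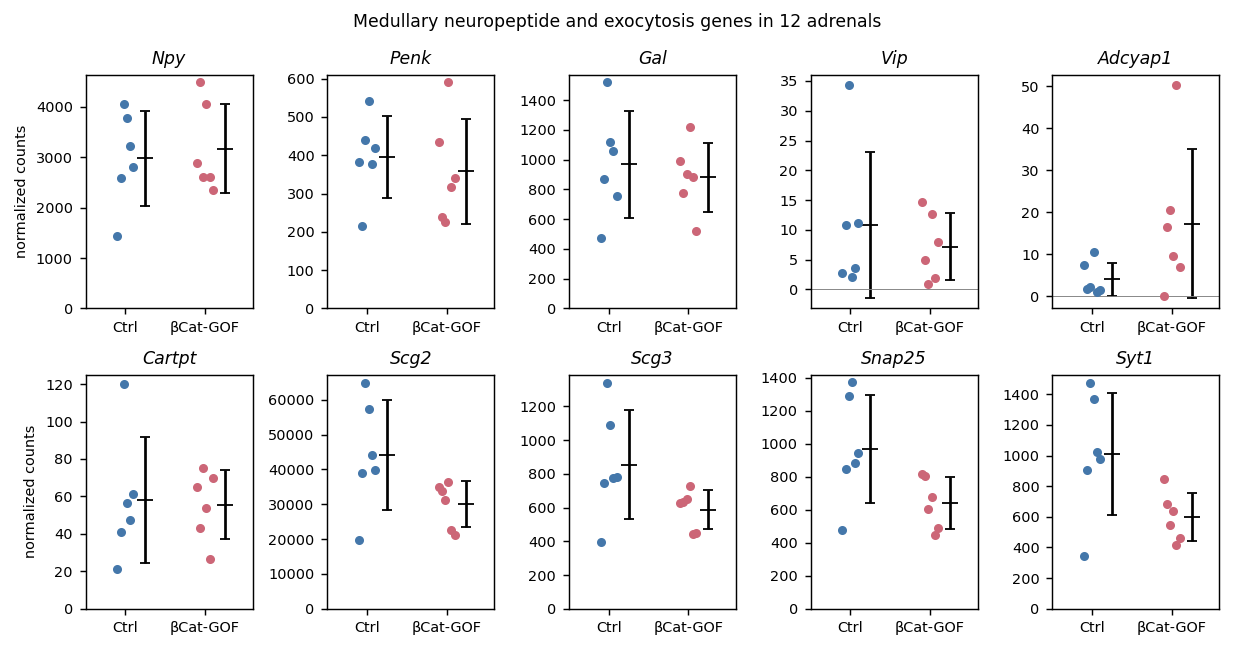
Normalized counts (linear axes starting at or below 0) of the 10 genes in each of 12 mice, blue for 6 Ctrl and red for 6 βCat-GOF, with the mean and SD of each group beside the points. The groups overlap in every panel. The lowest Ctrl point of *Scg2*, *Scg3* and *Syt1* (19700, 394 and 343) is the same mouse, Ctrl 1. Ctrl 1 is also the lowest Ctrl point of *Npy*, *Gal*, *Cartpt* and *Snap25* (1430, 471, 21.5 and 475).

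Among the peptide precursors, *Npy*, whose product neuropeptide Y is released with adrenaline and noradrenaline, had 1430 normalized counts in the lowest Ctrl mouse, a median of 3010 and 4050 in the highest. In βCat-GOF mice the lowest value was 2360, the median 2750 and the highest 4490. Of the 6 βCat-GOF values, 4 lay within the Ctrl range and 2 (4060 and 4490) above its top. The log2 fold change was 0.08 (SE 0.23, edgeR adjusted p = 0.88), a fold of 1.06 with a 95% interval of 0.752 to 1.49.

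*Penk*, the precursor of the enkephalins, ran from 215 through a median of 401 to 542 in Ctrl and from 226 through 330 to 592 in βCat-GOF. Its extremes were alike in both groups, with a log2 fold change of −0.15 (SE 0.25, edgeR adjusted p = 0.78). *Gal*, the galanin precursor, ran from 471 through 967 to 1520 in Ctrl and from 520 through 893 to 1220 in βCat-GOF. All βCat-GOF values of *Gal* lay within the Ctrl range, and its log2 fold change was −0.14 (SE 0.25, edgeR adjusted p = 0.79). *Cartpt*, which encodes the CART peptides, ran from 21.5 through 52.2 to 120 in Ctrl and from 26.6 through 59.4 to 75.2 in βCat-GOF. A single mouse, Ctrl 3, made the upper end of the Ctrl range, and the log2 fold change was −0.07 (SE 0.35, edgeR adjusted p = 0.93).

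*Vip* and *Adcyap1* were near the limit of detection and were not tested across genes. *Vip* had 75 reads over the 6 Ctrl libraries and 42 over the 6 βCat-GOF libraries. Of the 75, 45 came from Ctrl 3, which had 34.3 normalized counts where the other Ctrl mice had 2.1 to 11.2. The means were 10.8 ± 12.2 in Ctrl and 7.19 ± 5.64 in βCat-GOF (SD, n = 6), a difference within the spread (exact permutation test, two-sided, p = 0.63). Fitted without the filter, its log2 fold change was −0.63 (edgeR adjusted p = 0.65). *Adcyap1* had 25 reads in Ctrl and 103 in βCat-GOF libraries, and more than 3 reads in 2 of 6 Ctrl and 5 of 6 βCat-GOF mice. Its normalized counts ran from 0.898 through 1.98 to 10.5 in Ctrl and from 0 through 13 to 50.3 in βCat-GOF. Both the lowest and the highest value belonged to βCat-GOF mice, and 51 of the 103 reads were from βCat-GOF 5 alone. The means of 4.04 ± 3.98 and 17.3 ± 17.7 were not separated beyond that spread (exact permutation test, two-sided, p = 0.067; log2 fold change without the filter 2.08, edgeR adjusted p = 0.20).

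*Scg2*, secretogranin II, ran from 19700 through a median of 42000 to 64900 normalized counts in Ctrl and from 21100 through 32400 to 36400 in βCat-GOF. Only Ctrl 1 lay below the βCat-GOF mice, and the other 5 Ctrl mice lay above all of them. The log2 fold change was −0.57 (SE 0.25, edgeR adjusted p = 0.21), a fold of 0.676 with a 95% interval of 0.469 to 0.973. *Scg3*, secretogranin III, which tethers chromogranin A to the granule membrane, ran from 394 through 779 to 1340 in Ctrl and from 443 through 630 to 729 in βCat-GOF. The arrangement was that of *Scg2*, with Ctrl 1 below and the other 5 Ctrl mice above every βCat-GOF mouse, and the log2 fold change was −0.55 (SE 0.23, edgeR adjusted p = 0.21).

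*Snap25*, the plasma-membrane SNARE, ran from 475 through 912 to 1370 normalized counts in Ctrl and from 446 through 641 to 816 in βCat-GOF. Here Ctrl 1 lay among the lowest βCat-GOF mice and the other 5 Ctrl mice above all 6, with a log2 fold change of −0.60 (SE 0.23, edgeR adjusted p = 0.17). *Syt1*, the calcium sensor synaptotagmin 1, ran from 343 through 1000 to 1470 in Ctrl and from 418 through 591 to 847 in βCat-GOF, again with Ctrl 1 lowest and the other 5 Ctrl mice above all βCat-GOF mice. Its log2 fold change of −0.77 (SE 0.28, edgeR adjusted p = 0.15) was the largest of the 8, a fold of 0.588 with a 95% interval of 0.388 to 0.892. Without Ctrl 1, *Syt1* (log2 fold change −0.94, edgeR adjusted p = 0.021) and *Snap25* (−0.74, edgeR adjusted p = 0.048) passed the cut-offs. Over 12 fits, each without a single mouse, this was the only 1 in which either passed. The edgeR adjusted p reached 0.27 for *Syt1* and 0.31 for *Snap25* in the others. Without the 3 mice whose label is that of another with a suffix (Ctrl 1, Ctrl 3 and βCat-GOF 1), *Syt1* alone passed (−0.97, edgeR adjusted p = 0.01).

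The amount of medullary RNA differed between glands of the same genotype. A medullary index was formed from 10 other chromaffin genes, among them *Th*, *Ddc*, *Dbh*, *Pnmt*, *Slc18a1*, *Slc18a2*, *Chga*, *Chgb* and *Phox2a*, as their mean log2 CPM in each mouse. It was 7.77 ± 0.573 in Ctrl (range 6.79 to 8.39) and 7.43 ± 0.304 in βCat-GOF (range 7.06 to 7.78, SD, n = 6), a difference of −0.336 that was within the spread (exact permutation test, two-sided, p = 0.23). From the lowest to the highest gland the index spanned a 3.03-fold range. Ctrl 1 was lowest and Ctrl 3 highest, so both ends of the range were controls. Without Ctrl 1 the difference was −0.532 (exact permutation test, two-sided, p = 0.028).

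Most of the 10 genes moved with this index, including within a genotype. In a fit with genotype and index, a slope of 1 means that a gene doubles when the index genes double. Slopes passed the test for 6 of the 8 genes (edgeR, adjusted p under 0.05), where 3.62% of all genes tested had such a positive slope. The 6 were *Scg3* (1.03, SE 0.095), *Scg2* (1.07, SE 0.11), *Snap25* (0.99, SE 0.12), *Syt1* (1.27, SE 0.14), *Npy* (0.96, SE 0.14) and *Gal* (0.98, SE 0.16), with edgeR adjusted p between 0.00018 and 0.0032. *Cartpt* had a like slope with a wider error (1.10, SE 0.34, edgeR adjusted p = 0.13), and *Penk* had 0.42 (SE 0.26, edgeR adjusted p = 0.65). The median slope was 1.01 over the 8 genes and 0.00614 over all genes. Some markers listed for other cells moved with the index too. Of the 9 tested neuron markers 4 had a positive slope that passed (*Nefl*, *Stmn2*, *Elavl3* and *Uchl1*, median of the 9 0.776), as had 2 of the 7 tested Schwann and sustentacular markers (*Erbb3* among them, median of the 7 0.86). Of the 5 adipocyte markers 0 passed, with a median slope of 1.57. Nor did any zG, zona fasciculata, endothelial or macrophage marker pass, with median slopes of 0.14, −0.138, −0.165 and 0.0512. The summed neuron markers ran from 1300 to 3530 normalized counts in Ctrl and from 1340 to 2110 in βCat-GOF, the Schwann and sustentacular markers from 346 to 880 and 340 to 626, and the adipocyte markers from 1690 to 12600 and 2730 to 9870. Their part in the slopes was not tested. These tests lean on the range of the index. Without its lowest and highest mouse (Ctrl 1 and Ctrl 3) the 6 slopes were 0.865 to 1.10 and 0 passed, with adjusted p of 0.091 to 0.38, and without Ctrl 1 alone *Npy* and *Gal* did not pass (edgeR adjusted p = 0.092 and 0.11).

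**Figure D2:**
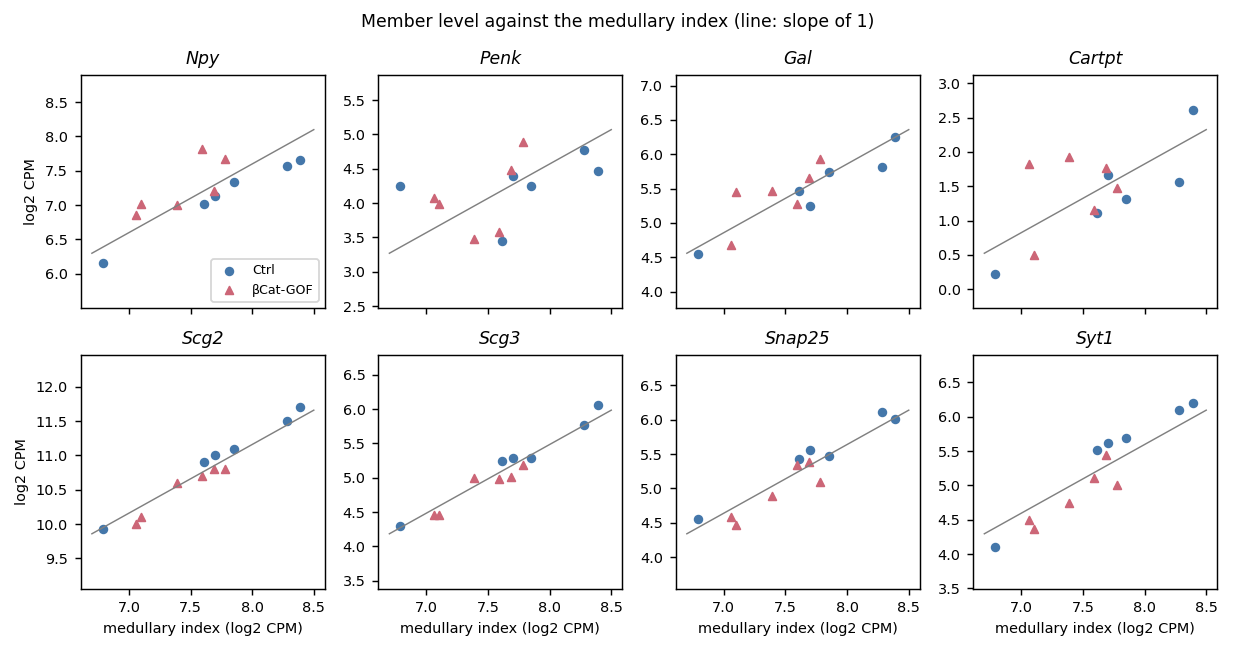
Level of each of the 8 tested genes (log2 CPM) against the medullary index (mean log2 CPM of 10 other chromaffin genes) in 12 mice, blue circles for Ctrl and red triangles for βCat-GOF, with a grey line of slope 1 through the mean. *Scg2* and *Scg3* follow the line closely, *Penk* does not, and the 6 triangles of *Npy* lie above the trend of the circles.

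How tightly a gene followed the index set these genes apart from one another. Within a genotype, the SD of log2 CPM was 0.50 for *Scg2* and 0.48 for *Scg3*, against a median of 0.26 over all genes tested. After the index was subtracted these SDs were 0.074 and 0.097. They went from 0.47 to 0.14 for *Snap25*, from 0.60 to 0.21 for *Syt1*, from 0.48 to 0.19 for *Npy* and from 0.51 to 0.23 for *Gal*. *Cartpt*, with fewer reads, kept 0.46 of 0.67. *Penk* was the exception, at 0.49 before and 0.52 after. Calling *Penk* medullary here thus rests on the list and not on these values. The lowest mouse of *Penk* was Ctrl 2 and its highest βCat-GOF 4, neither at an end of the index.

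Correlations of log2 CPM over the 12 mice, which share libraries and the index, describe the same order. The 6 pairs among *Scg2*, *Scg3*, *Snap25* and *Syt1* had Pearson's r of 0.944 to 0.988, and *Penk* had 0.206 to 0.361 with the other 7 genes. The genes most like *Scg2* over these mice were *Dlk1* (r = 0.991), *Scg3* (0.988) and *Aplp1* (0.987), and those most like *Scg3* were *Scg2*, *Chga* (0.982) and *Resp18* (0.981). Nearest to *Snap25* were *Nrg3* and *Slc18a1*, the vesicular monoamine transporter of chromaffin cells (both 0.988), and *Mapk8ip2* (0.986). For *Syt1* they were *Rnf165* (0.995), *Vat1l* (0.993) and *Slc18a1* (0.987), and for *Gal* *Rab3b* (0.918), *Nme5* (0.91) and *Syp* (0.908). *Npy* was most like *Cdh22* (0.906), *Dlg4* (0.888) and *Gm6288* (0.874), and *Cartpt* most like *Usp27x* (0.895), *Pcp4* (0.884) and *Map7d2* (0.874). The genes nearest to *Penk* were *Arhgdib* (0.889), *Ptgir* (0.874), the prostacyclin receptor, and *Vasn* (0.859). Index genes were among the nearest 3 for *Scg3*, *Snap25* and *Syt1* and for none of the other 5.

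At an equal medullary index, 0 of the 8 genes passed the cut-offs (edgeR), against 2.19% of all genes, and 3 had an unadjusted p under 0.05 (*Npy*, *Snap25* and *Syt1*), as had 16.8% of all genes in that fit. The log2 differences of the granin and exocytosis genes were then −0.14 for *Scg2* (SE 0.094, edgeR adjusted p = 0.48), −0.13 for *Scg3* (SE 0.083, adjusted p = 0.48), −0.23 for *Snap25* (SE 0.099, adjusted p = 0.28) and −0.25 for *Syt1* (SE 0.11, adjusted p = 0.29). *Npy* had a difference of 0.45 (SE 0.12, 95% interval 0.195 to 0.714, edgeR adjusted p = 0.062). Its log2 CPM minus the index ran from −0.731 to −0.515 in the 6 Ctrl mice and from −0.483 to 0.224 in the 6 βCat-GOF mice. The groups of *Npy* did not overlap on this scale, as was so in that direction for 0.762% of all genes, and the other 7 genes overlapped. That share is over all genes, whose median slope on the index was 0.00614, and not over genes that follow the index. Without the index *Npy* had a log2 fold change of 0.0832, while the index difference was −0.336. Among the index genes, *Th* had 0.371 at equal index (SE 0.14, edgeR adjusted p = 0.20), with a median of 0.0168 over that list. *Gal* and *Cartpt* had 0.25 (SE 0.14, adjusted p = 0.40) and 0.45 (SE 0.31, adjusted p = 0.52), and *Penk* −0.02 (SE 0.25, adjusted p = 0.98).

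**Figure D3:**
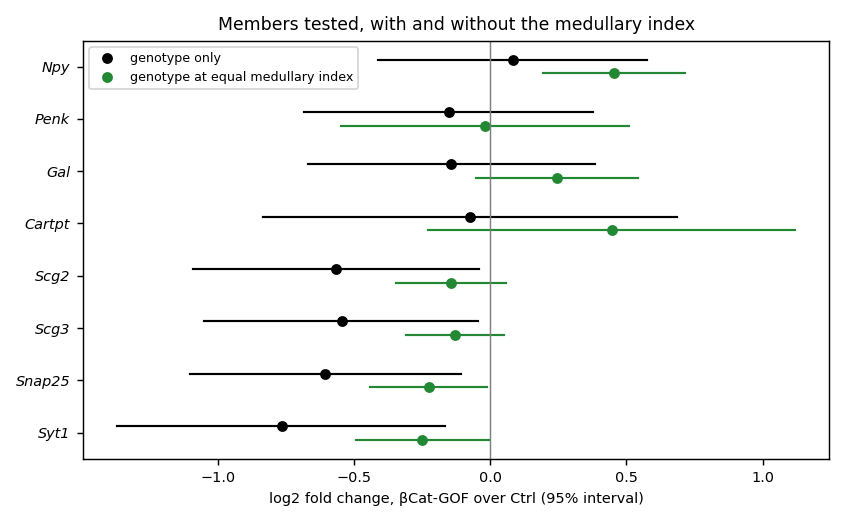
Log2 fold change of βCat-GOF over Ctrl with its 95% interval for the 8 tested genes, in black from the genotype alone and in green at equal medullary index (n = 6 mice per group). The 4 granin and exocytosis genes move from between −0.765 and −0.545 towards 0, and *Npy* from 0.08 to 0.45.

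Genes that load, process and release the granule were described from lists fixed by name. Of 12 genes of granule cargo and prohormone processing, all tested, 9 had lower and 3 higher means in βCat-GOF adrenals, with a median log2 fold change of −0.402. *Chga* and *Chgb* are in this list and also in the index. *Vgf* and *Cpe* passed the cut-offs as higher, the direction of 1.48% of all genes. *Vgf*, a granin-like precursor of several peptides, ran from 25.3 through 60.3 to 89.2 normalized counts in Ctrl and from 85 through 197 to 282 in βCat-GOF. Apart from βCat-GOF 1, at 85, every βCat-GOF mouse lay above all Ctrl mice, and the log2 fold change was 1.72 (SE 0.30, edgeR adjusted p = 0.0069). *Cpe*, carboxypeptidase E, trims the cut ends of prohormones. It had 19500 to 29100 in Ctrl and 29600 to 44400 in βCat-GOF, groups that did not overlap, and rose by a log2 fold change of 0.64 (SE 0.14, edgeR adjusted p = 0.024). *Pam*, which amidates peptides such as neuropeptide Y and galanin, rose by 0.47 (SE 0.11, edgeR adjusted p = 0.029), a fold of 1.38 that is under the cut-off (by the adjusted p alone, 2.16% of all genes were higher). None of these 3 had a slope on the index that passed the test. The slope of *Vgf* was 0.81 with a 95% interval of 0.112 to 1.5 (edgeR adjusted p = 0.30), and those of *Cpe* and *Pam* were 0.15 and 0.16 (adjusted p = 0.86 and 0.75). At equal index they were higher by 2.09, 0.69 and 0.52 (edgeR adjusted p = 0.003, 0.023 and 0.022), all 3 past the cut-offs, as were 1.43% of all genes in that direction. *Cpe* lost its call without Ctrl 4, Ctrl 5 or Ctrl 6 (adjusted p of 0.056 to 0.058). The largest log2 values below 0 in this list were −0.82 for *Ptprn2* (edgeR adjusted p = 0.10) and −0.64 for *Pcsk1n* (adjusted p = 0.21).

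Of 30 genes of the exocytosis machinery, all tested, 25 had lower and 5 higher means, with a median log2 fold change of −0.394. *Cadps*, the CAPS1 protein that primes dense-core granules for release, passed the cut-offs as lower, the direction of 0.869% of all genes. Its normalized counts ran from 184 through 544 to 711 in Ctrl and from 150 through 288 to 301 in βCat-GOF. Ctrl 1 was again the exception, since the other 5 Ctrl mice had at least 508. The log2 fold change was −1.05 (SE 0.27, edgeR adjusted p = 0.049), and at equal index −0.62 (SE 0.19, adjusted p = 0.11). Over 12 fits, each without a single mouse, *Cadps* stayed between −1.22 and −0.945 in log2 fold change, while its call, close to the threshold, was kept in 2. Near it were *Cplx1* (−0.94, edgeR adjusted p = 0.12), *Syn2* (−0.87, adjusted p = 0.079) and *Rph3a* (−0.86, adjusted p = 0.088).

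The chromaffin genes of the index had a median log2 fold change of −0.349, with 9 of 10 lower and 0 past the cut-offs. Of the 10, 3 had an unadjusted p under 0.05, as had 20.4% of all genes tested. Their values ranged from −0.74 for *Phox2a* to 0.02 for *Th*. The 5 tested subunits of nicotinic receptors and sodium channels, which carry the response to acetylcholine, were all lower in mean, from −1.30 for *Scn9a* and −1.01 for *Chrnb4* to −0.70. All 5 had an unadjusted p under 0.05 and 0 passed the cut-offs (edgeR adjusted p = 0.12 for *Scn9a*, 0.13 for *Chrna3* at −0.86 and 0.14 for *Chrna7* at −0.81). At equal index their median was −0.522, and 2 of the 5 had an unadjusted p under 0.05, as had 16.8% of all genes in that fit. DESeq2 called *Chrna3*, *Ptprn2*, *Rph3a* and *Syn2* as lower beside *Cadps*, where it called 1.66% of all genes with an adjusted p as lower.

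Other peptide precursors and the receptors of the 6 peptides were mostly low. Of 23 other precursors, 5 had enough counts to be tested and 0 passed (edgeR), with 3 at an unadjusted p under 0.05 (20.4% of all genes tested were). *Cck* had a log2 fold change of −1.03 (SE 0.39, adjusted p = 0.16), *Adm* −0.72 (SE 0.30, adjusted p = 0.20), *Nmb* 0.82 (SE 0.34, adjusted p = 0.20) and *Npff* 0.47 (SE 0.34, adjusted p = 0.47). *Sst*, *Grp*, *Nmu*, *Ucn*, *Ucn3* and *Nppa* had 0 counts in all 12 mice. Exons of other genes overlap 61.5% of those of *Nppa* (Gm13054, other strand), 32.6% of those of *Npff* (Gm28047) and 20.6% of those of *Nmb* (Sec11a), so the counts of these 3 are uncertain. Of 13 receptor genes counted, 6 were tested and 0 passed, with 2 at an unadjusted p under 0.05. *Adcyap1r1*, the PACAP receptor, was the most abundant, with means of 1890 normalized counts in Ctrl and 1200 in βCat-GOF and a log2 fold change of −0.66 (SE 0.26, adjusted p = 0.18). Its slope on the index was 1.08 (SE 0.17, adjusted p = 0.0026). *Npy2r*, a receptor of neuropeptide Y, had means of 514 and 559 (log2 fold change 0.12, SE 0.20, adjusted p = 0.79) and a slope of 0.70 (SE 0.17, adjusted p = 0.04). *Oprd1*, a receptor of enkephalins, had means of 30.2 and 14.1 (−1.08, SE 0.47, adjusted p = 0.21).

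**Figure D4:**
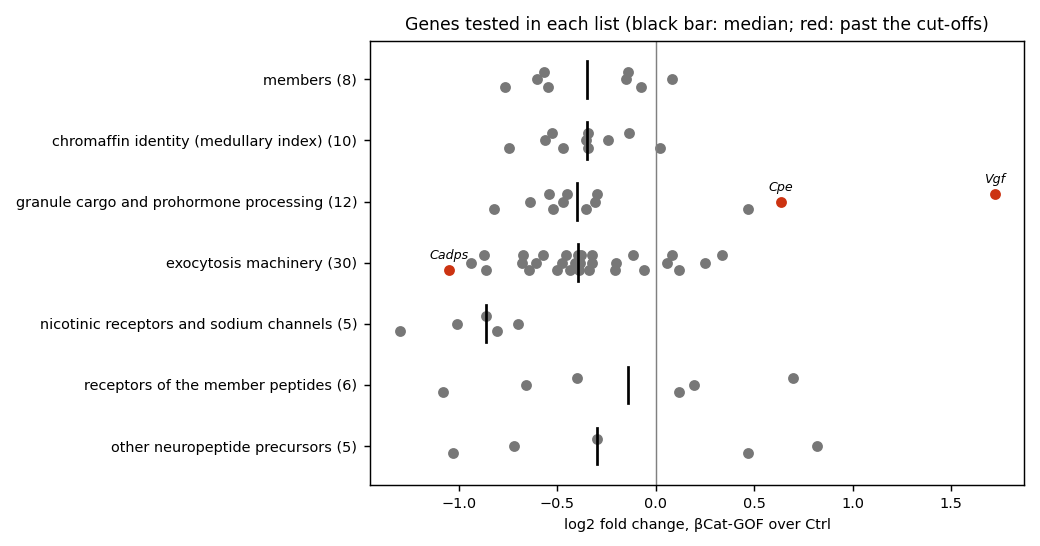
Log2 fold change of βCat-GOF over Ctrl for each tested gene of the 10 genes described and of 6 lists, 1 point per gene, with the median as a black bar and genes past the cut-offs in red. The medians of all 7 rows lie below 0 (from −0.861 to −0.14), and *Vgf* (1.72), *Cpe* (0.64) and *Cadps* (−1.05) are the red points. *Chga* and *Chgb* appear both in the index row and in the granule cargo row.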

How the data were processed

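RNA from whole adrenals was sequenced as mRNA libraries, 1 per mouse, for 6 Ctrl and 6 βCat-GOF mice. The authors used STAR for alignment (mm10) and featureCounts 1.4.4, with reads that map uniquely, for counts of each gene. They deposited the raw counts and a table of signal, which is the same counts over a size factor for each library (DESeq2 1.6.3). Every value of that deposited signal, times its factor, came out whole within 0.01 (100%), and the factors were 0.9545 to 0.9758 times those computed here. The annotation release and strand setting are not given in the sources used here. Every column belonged to a sample (0 left over).

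Counts were tested with edgeR 4.0.16 (TMM, filterByExpr, quasi-likelihood, two-sided; R 4.3.3). P-values were adjusted by Benjamini-Hochberg over 14953 genes and calls used the study's cut-offs on fold, adjusted p and base mean. The SE is the log2 fold change over the square root of F. Normalized counts are counts over DESeq2's median-of-ratios factors. Log2 CPM used a prior count of 2. The index and the Schwann and sustentacular list each hold 1 gene that is not reported here by itself. Slopes and differences at equal index come from 1 edgeR fit of genotype and index. Exact permutation tests on 12 mice used all 924 splits, with a smallest p of 0.0022. Those without a mouse used all splits of the mice kept, which are fewer. Nothing in the labels says that the mice came from separate litters, so p-values measure the spread between these mice.

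The 10 genes and all lists were chosen with earlier results of these data known. Besides the 10, the genes named are, in each list, at most 4 with the largest absolute log2 fold change and those past the cut-offs, and the 3 genes most correlated with each of the 10. *Pam*, *Npy2r*, *Adcyap1r1*, *Th*, *Chga*, *Chat*, the cell type markers, the index genes and those that DESeq2 called were chosen as checks or for scale, or with their values already seen. Copies were searched for with blastn 2.17.0 (minimum identity 95%, minimum covered share of the transcript 10%). Alternatives were DESeq2 1.42.0, other size factors, other filters, no limit on fold or base mean, the index as covariate, limma 3.58.1 for slopes, an index without *Pnmt*, and fits without certain mice. The edgeR fits of genotype and of the slope on the index were tested on simulated data. The genotype changes planted there were larger than any found in the 8 tested genes, so that test does not cover changes of their size. Figures were drawn with Python 3.11.15 and matplotlib 3.10.9.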

Additional observations from a re-analysis of the deposited data

Results flagged for a closer look

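In 28 sets of 6 mice (10 genes, the list genes past the cut-offs and the index, in each genotype) the extreme mouse was compared with its group by Dixon's ratio, which chance exceeds in about 1 of 20 sets. It was exceeded in 1 of them. *Vip* had 34.3 normalized counts in Ctrl 3, against 2.1 to 11.2 in the other 5 Ctrl mice, a ratio of 0.718. Ctrl 3 was also the mouse with the highest medullary index and the most total counts, and the part of either in this value was not tested.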

How the results depend on the processing

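No paired analysis was possible because the labels give no replicate numbers shared by the groups. The count of 0 among the 10 genes was also obtained with DESeq2, other size factors (those of the deposited signal were added after seeing the data), no filter, at least 10 counts in every mouse, adjusted p alone, the index as covariate and without βCat-GOF 5. It was 1 (*Syt1*) without the 3 mice whose label is that of another with a suffix, and 0 to 2 without single mice, 2 being without Ctrl 1. List genes past the cut-offs as lower numbered 1, but 5 with DESeq2, 0 with the index as covariate (added after seeing the data), 11 without those 3 mice, 0 without βCat-GOF 5 and 0 to 9 without single mice (9 without Ctrl 1, 6 without βCat-GOF 1, 0 without any other). Those higher numbered 2, and 1 to 3 without single mice. *Vgf* passed in 12 of 12 such fits (1.57 to 1.89), *Cpe* in 9 and *Cadps* in 2. The 6 slopes that passed became 4 to 7 without single mice and 0 without the mice of lowest and highest index, a setting added after seeing the data, and were 6 with limma. The index difference was −0.532 to −0.213 without single mice, and passed p under 0.05 only without Ctrl 1.

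Directions near 0 turned. With the index as covariate *Gal* was at 0.246 and *Cartpt* at 0.448. *Cartpt* was at 0.0506 without those 3 mice and 0.0781 without βCat-GOF 5. Without single mice *Npy* ranged from −0.0524 to 0.198, *Gal* from −0.277 to 0.0394 and *Cartpt* from −0.238 to 0.291. The cause of these changes was not tested. With 3 counts worth 0.117 to 0.222 CPM, *Vip* (1 to 45 counts per mouse) and *Adcyap1* (0 to 51) were near the limit of detection in several mice.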
